A study of Homo sapiens with 8 samples.

Results

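Translation factors are the proteins that load ribosomes onto messenger RNAs, move them along the coding sequence and release the finished chain. The peaks described here lie in transcripts of the eukaryotic initiation factors (symbols starting with EIF), the elongation factors (EEF), the cytoplasmic poly(A)-binding proteins (PABPC) and the release factors (GSPT and ETF1). Argonaute genes listed as EIF2C, the EIF2AK kinases and the EIF4EBP repressors were not members. The choice by symbol used no measured value and gave 165 peaks in 39 genes, of 22506 peaks in the whole table. Ago2 is the Argonaute protein that carries microRNAs to their target transcripts. In CLIP (crosslinking and immunoprecipitation) the RNA bound to Ago2 is isolated and sequenced, and a peak is a stretch of a transcript where its reads collect.

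293S cells, which descend from HEK293 (a line of human embryonic kidney origin), were grown as an adherent layer. The control cells had no treatment, and the treated cells received emetine, an alkaloid that stops the ribosome during elongation, at 20 µg/mL for 60 minutes. Each treatment had 1 culture, from which 1 RNA-seq library and 3 Ago2 CLIP libraries with different antibodies were made, 8 samples in all. All p-values therefore measure the spread between aliquots and antibodies, not between cultures. The labels name the same 3 antibodies in both treatments, but the recovered libraries carry no antibody label. The tests are therefore unpaired, and differences between antibodies enter their error. The design compares Ago2 binding and RNA abundance with and without emetine.

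Initiation begins when eIF4E, eIF4G and the RNA helicase eIF4A assemble at the cap, while poly(A)-binding protein holds the tail. The ribosome's small subunit, bound to eIF3, eIF1, eIF1A and the eIF2 complex that brings the initiator tRNA, is then recruited and scans to the start codon, where eIF5 and eIF5B act. In elongation eEF1A delivers aminoacyl-tRNA and eEF2 moves the ribosome by a codon, and ETF1 with GSPT1 ends the chain. Many messenger RNAs of this machinery are known to begin with a terminal oligopyrimidine (TOP) tract, through which the cell tunes their own translation.

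That tract is shown for the members that carried one at an annotated start. The 300-base RefSeq windows (GRCh38.p14) around annotated starts held 30 of the 39 genes by symbol, and 6 of them began with C followed at once by at least 4 bases of C or T. Counted by annotated start, that is 6 of the members' 45 (13.3%), beside 4.07% of 35116 starts of all genes. The search covered the transcript strand from the first base. The 20 bases from the start are given below in the 5′ to 3′ direction, with the tract in capitals.
EEF2, chr19:3985444-3985463, minus strand: CTCTTCCgccgtcgtcgccg
EEF1A1, chr6:73521013-73521032, minus strand: CTTTTTCgcaacgggtttgc
EIF2S3, chrX:24054956-24054975, plus strand: CTCTTTTggcaacatggcgg
EIF3F, chr11:7987337-7987356, plus strand: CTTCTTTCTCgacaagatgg
EIF4A2, chr3:186783577-186783596, plus strand: CTTTTCagtcgggcgctgag
EIF4B, chr12:53006456-53006475, plus strand: CTTTTgcgttctctttccct
In the CLIP comparison these 6 genes gave both positive and negative values. Their log2 changes with emetine were 1.74 for EEF1A1, 0.48 for EEF2, −0.77 for EIF2S3, 3.34 for EIF3F, 0.38 for EIF4A2 and −0.29 for EIF4B. For EIF2S3 the summed reads lay on the other side of the log2 change, as given with the eIF2 genes. None passed the test, limma with Benjamini-Hochberg adjustment at 0.05, described further on.

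The deposited values are natural logarithms that combine the libraries, and whole reads per library were recovered from them. A normalised read number is a library's reads times what the authors' scaling made 1 read worth. Libraries are numbered 1 to 3 within a treatment by the falling value of 1 read, and no antibody could be assigned to a number. Reads in all listed peaks were 38431 to 104558 with emetine and 37466 to 117155 in the control. Library 1 of both treatments was the shallowest, and 42.1% and 39.5% of its reads lay in exons of noncoding transcripts, against 6.04% to 12.9% in the other 4 libraries. Some results are given also without this pair. The 3 emetine libraries held 241, 651 and 718 member reads, and the 3 control libraries 250, 578 and 762, which is 3200 reads in all.

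Translation factor peaks lay more often in coding sequence than the peaks of the table did. Of the 165 peaks, 86 (52.1%) were coding, 67 (40.6%) lay in 3′ UTRs and 12 (7.27%) in 5′ UTRs. Over all peaks with recovered reads these shares were 33.3%, 57.7% and 4.95%. Peaks of a gene share its length and level, so the difference is given as a description. The genes divided by region: 10 had peaks in coding sequence but in neither UTR, among them the eIF3 subunits EIF3A, EIF3F, EIF3G and EIF3I, and 12 had peaks in the 3′ UTR alone, among them EIF1AD, EIF1AX, EIF5, EIF5A and ETF1. The 5′ UTR peaks came from EEF1D, EEF2, EIF1, EIF3E, PABPC1 and PABPC4. A member peak held a median of 16 reads over the 6 libraries and was 34 bases wide, against 15 reads and 30 bases over all peaks.

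Some parts of the machinery had no peak in the table. Of 75 protein-coding symbols that the rule finds in RefSeq, 36 had none, among them EIF4E, the cap-binding protein, and EIF6. The guanine nucleotide exchange factor eIF2B had a peak in 0 of its 5 subunit genes, and eIF3 in 6 of its genes. The table lists peaks with at least 11 reads, so a gene without a row is not shown to lack Ago2.

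The members' share of Ago2 reads did not differ beyond the spread between libraries. With emetine, libraries 1 to 3 gave 0.627%, 0.623% and 0.747%, while the control gave 0.667%, 0.493% and 0.743%. The means were 0.665% ± 0.0703 (SD, n = 3) and 0.634% ± 0.128 (SD, n = 3), a difference of 0.031 percentage points (two-sided exact permutation test, p = 0.8, adjusted p = 0.8 over 2 shares). The groups overlapped, with control library 2 lowest and emetine library 3 highest. The smallest p that 3 against 3 libraries can give is 0.1. Without control library 2 the difference was −0.0396 points, and without emetine library 3 it was −0.0096 points.

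Among the members' own reads the coding share was nearly constant with emetine and more variable in the control. Coding peaks took 53.1%, 52.5% and 52.6% of member reads in emetine libraries 1 to 3. In control libraries 1 to 3 the share was 56.8%, 44.5% and 46.9%, so that control library 1 lay above every emetine library and the others below. The means were 52.8% ± 0.306 and 49.4% ± 6.54 (SD, n = 3 each), with a two-sided exact permutation p of 0.4 and 0.8 after adjustment. Without library 1 of both treatments the difference was 6.93 points (exact permutation p = 0.333, the smallest possible with so few libraries). Without control library 1 alone it was 7.11 points, at the smallest possible exact p of 0.1. Over all peaks the coding share was 18.1%, 34.0% and 28.6% in the emetine libraries, against 18.4%, 27.1% and 24.2% (exact permutation p = 0.5). The 5′ UTR share of member reads was close between libraries of the same number: 15.8%, 1.23% and 8.08% in emetine libraries 1 to 3, against 16.4%, 1.38% and 6.82%.

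**Figure D1:**
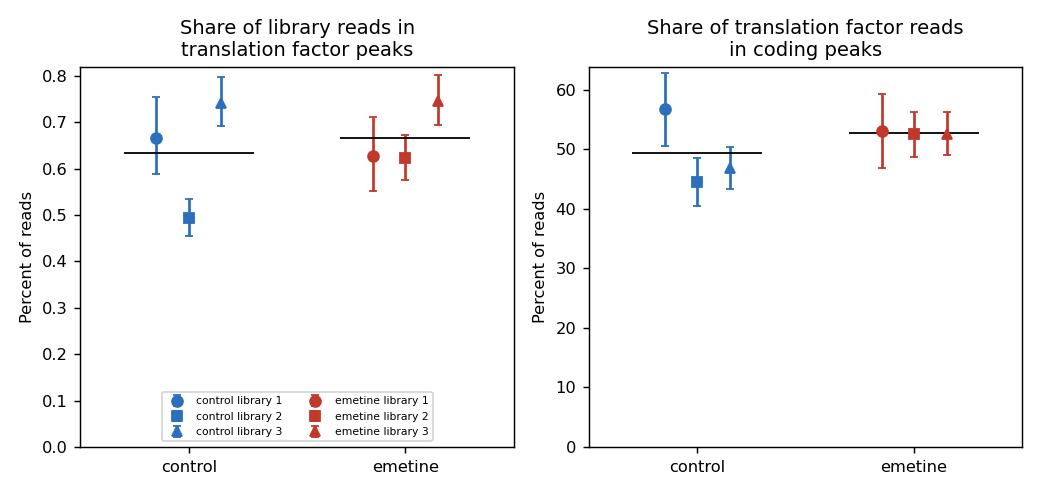
The left panel plots the percent of each CLIP library's reads in listed peaks that lay in translation factor peaks, and the right panel the percent of those member reads in coding peaks. Points are libraries, bars are Wilson 95% intervals (counting error only) and lines are group means; control library 2 is lowest in both panels, and the emetine libraries lie within 1 point of each other on the right.

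The question of which single sites gained or lost Ago2 was tested with limma on log2(normalised reads + 1) over all 22467 peaks with recovered reads. With Benjamini-Hochberg adjustment at 0.05, 0 of the 165 member peaks were called, beside 0.0% of all peaks, with adjusted p-values of 0.783 or more. Counted by unadjusted p under 0.05, 2 members were higher with emetine and 0 lower, against 0.77% and 0.294% of all peaks. limma-voom also called 0, with 6 members (3.64%) and 2.53% of all peaks under an unadjusted 0.05. Direction was near even: 87 member peaks had a positive and 78 a negative change, beside 50.2% and 49.8% of all peaks. The median log2 change was 0.10 for members and 0.01 for all peaks, beside a median standard error of 2.04. All 3 emetine libraries exceeded all 3 control libraries at 8 member peaks (4.85%, against 2.55% of all peaks) and lay under them at 3 (1.82%, against 1.43%). With libraries 2 and 3 alone these counts were 20 (12.1%, against 9.89%) and 10 (6.06%, against 8.48%).

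**Figure D2:**
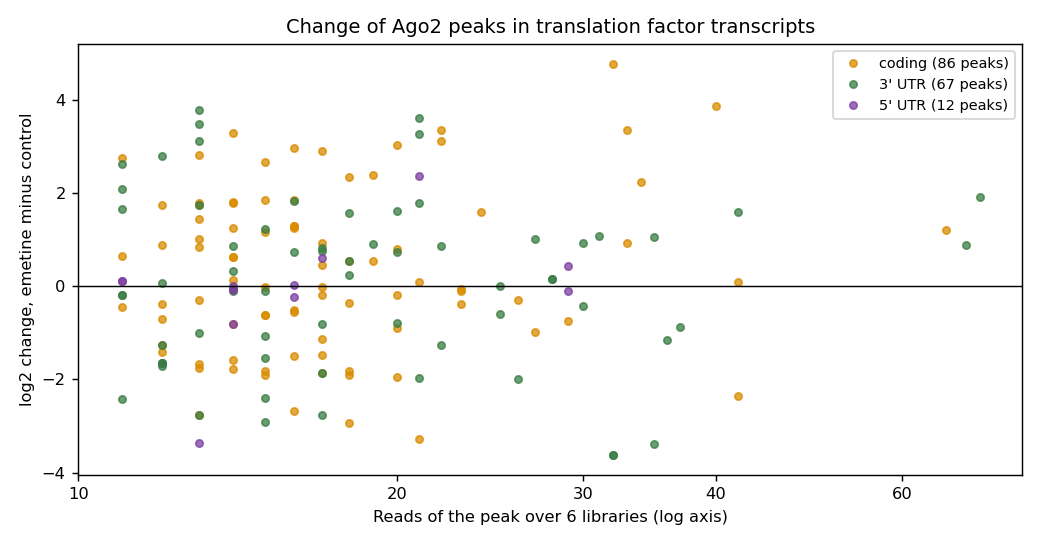
Each point is 1 of the 165 member peaks; the x axis is its reads over the 6 CLIP libraries (log axis), the y axis its log2 change with emetine, and colour marks the transcript region. Coding, 3′ UTR and 5′ UTR peaks spread on both sides of 0, from −3.63 to 4.78.

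Sums over the peaks of a gene gave a similar picture. Among 6319 genes limma called 0 of the 39 members and 0.0% of all genes, with adjusted p-values of 0.80 or more. The log2 change was positive for 21 and negative for 18 members, and positive for 51.1% of all genes. Without adjustment, at a p under 0.05, 1 member was lower (0.76% of all genes were) and 0 were higher (1.12%). limma-voom called 0 members and 1 other gene. Only 0.0317% of all genes had an unadjusted limma-voom p under 0.05, so its lack of member calls says little. The groups did not overlap at 4 members: EIF4A1 and EIF5A were higher in all emetine libraries (5.13% of members, 3.01% of all genes), EIF1AD and PABPC1 lower in all (5.13% and 2.18%). Some neighbouring peaks overlap, 25 of the 165, and 6 repeat the reads of another peak of their gene, so a read can enter a sum more than once. Ratios of totals below divide the summed emetine reads by the summed control reads after scaling for depth, with exact 95% intervals that cover counting error only. The log2 change weights the libraries equally, and at 8 of the 39 genes it lay on the opposite side from the ratio of totals: EEF1A2, EIF1, EIF1AX, EIF2S3, EIF3E, EIF4H, ETF1 and PABPC4. By the ratio, 23 members were above 1.

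**Figure D3:**
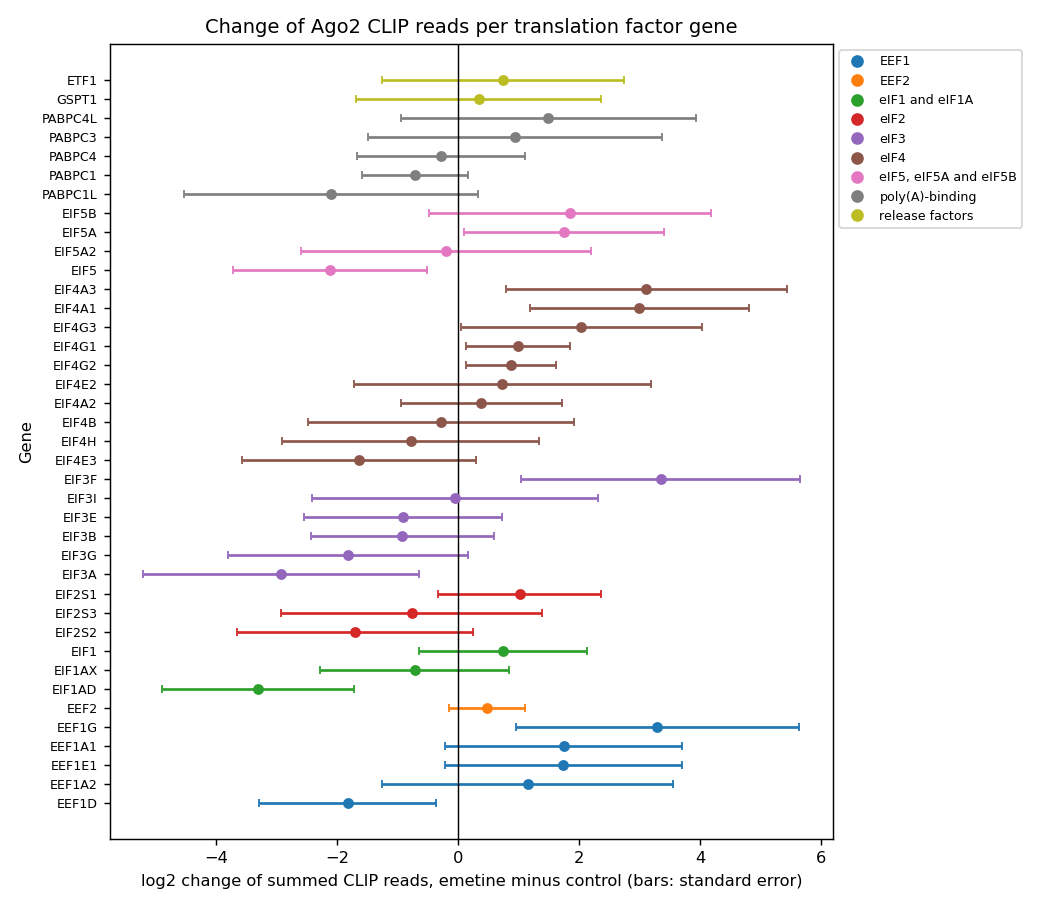
Points give the log2 change of summed CLIP reads (emetine minus control) for each of the 39 genes, bars its standard error from limma, and colours the role. Of the 10 eIF4 genes 7 lie above 0 and of the 6 eIF3 genes 5 lie below 0, with EIF3F the highest of all genes at 3.34 and EIF1AD the lowest at −3.31.

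The eIF4 group, which binds the cap and unwinds the 5′ end, held the most reads. Its 10 genes and 49 peaks had 70, 300 and 220 reads in libraries 1 to 3 with emetine, against 62, 78 and 275 without it. The ratio of totals was 1.58 (95% interval 1.39 to 1.80), with control library 2 far below the others. Of the genes, 7 had a positive and 3 a negative log2 change, and 0 were called.

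EIF4G2 encodes a shortened relative of the scaffold eIF4G that does not bind eIF4E. Its 19 peaks held 27, 139 and 75 emetine reads and 23, 16 and 166 control reads. The groups overlapped, and the log2 change was 0.87 (SE 0.74, limma adjusted p = 0.80). Without control library 2 the change was 0.019. The regions of EIF4G2 differed in their totals. Its 10 coding peaks held 11, 67 and 53 reads with emetine and 7, 4 and 62 in the control, a ratio of 1.99 (1.49 to 2.69). Its 9 peaks in the 3′ UTR held 16, 72 and 22 against 16, 12 and 104, a ratio of 0.926 (0.712 to 1.20). The coding peak at chr11:10821244-10821278 (hg19) had 1, 11 and 4 reads against 1, 0 and 1, and its emetine libraries did not overlap the control.

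EIF4G1, the main scaffold between cap and ribosome, had 28, 78 and 52 emetine reads and 25, 19 and 41 control reads over 14 peaks. The ratio of totals was 2.07 (1.58 to 2.72) and the log2 change 0.99 (SE 0.85, limma adjusted p = 0.80). When the repeated peak was counted once the ratio was 1.96. By totals both regions lay above 1, with a ratio of 1.99 (1.45 to 2.76) for its 11 coding peaks and 2.27 (1.35 to 3.92) for its 3 peaks in the 3′ UTR. The 3′ UTR peaks held 15, 29 and 3 reads against 11, 0 and 12 and went both ways. The peak at chr3:184052815-184052847 had 1, 29 and 0 against 1, 0 and 4, and that at chr3:184052860-184052921 had 4, 0 and 1 against 6, 0 and 6. EIF4G3, the third scaffold paralog, had 1, 16 and 15 reads against 2, 0 and 7.

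The helicase EIF4A1 had the largest contrast of the eIF4 genes with 2 or more peaks. Its 3 peaks held 3, 26 and 23 reads with emetine and 1, 1 and 3 in the control, a ratio of 11.6 (4.65 to 37.1) and a log2 change of 2.99 (SE 1.81, limma adjusted p = 0.80). Every emetine library lay above every control library after scaling. The difference sat in coding sequence, where 2 peaks held 3, 26 and 16 reads with emetine and 0 in each control library. One of them, chr17:7478454-7478485 on the plus strand, had 3, 26 and 3 reads against 0, 0 and 0, at least 11.9-fold higher with 0 set at 3 reads over the group. It also had the highest log2 change of all member peaks, 4.78, and an unadjusted limma p of 0.0191 (adjusted 0.783). In the 3′ UTR of EIF4A1 the reads were 0, 0 and 7 against 1, 1 and 3. Of the 30-base words in the EIF4A1 transcript, 46.4% also occur in transcripts of other loci, mostly pseudogenes, and how the authors treated reads with several matches is not given in the sources used here.

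Among the paralogs of EIF4A1, EIF4A2 had a small log2 change of 0.38, and EIF4A3 went the same way as EIF4A1 on few reads. Differences between paralogs were not tested. EIF4A2, a close helicase paralog, had 6, 19 and 16 emetine reads and 4, 23 and 12 control reads, a ratio of 1.17 (0.735 to 1.86). EIF4A3, which belongs to the exon junction complex, had a single peak in its 3′ UTR at chr17:78109147-78109180 with 2, 11 and 0 reads against 0, 0 and 0. That is at least 4.82-fold higher, on 13 reads, with a log2 change of 3.11 (SE 2.32, limma adjusted p = 0.80). EIF4B, which stimulates the helicase, had 3, 0 and 8 reads against 0, 18 and 9; its coding peak at chr12:53433034-53433059 had 18 reads in control library 2 and 0 elsewhere.

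Among the smaller eIF4 genes, each peak rested on few libraries. EIF4H, another helicase cofactor, had 0, 2 and 29 reads against 7, 0 and 21. EIF4E2, a cap-binding relative of eIF4E, had 0, 9 and 2 against 0, 1 and 4. EIF4E3 had 12 reads in control library 3 and none in the other libraries.

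Elongation factor EEF2, the translocase, had the most Ago2 reads of all members. Its 24 peaks held 50, 80 and 139 emetine reads and 48, 73 and 80 control reads. The groups overlapped, and the log2 change was 0.48 (SE 0.63, limma adjusted p = 0.844). The ratio of totals was 1.49 (1.23 to 1.79). Along EEF2 the ratio was 1.12 (0.892 to 1.40) for 16 coding peaks, 2.47 (1.69 to 3.66) for 7 peaks in the 3′ UTR and 10.6 (2.55 to 93.5) for the 5′ UTR peak. The 3′ UTR peaks held 21, 11 and 59 reads against 12, 0 and 29. Some of them overlap, so a read can count more than once and the interval is too narrow. The 5′ UTR peak, chr19:3985375-3985441 (hg19, minus strand), had 1, 3 and 15 reads against 1, 0 and 1, so 15 of its 21 reads came from 1 library.

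Coding peaks of EEF2 went both ways. The peak at chr19:3980521-3980563 had 2, 11 and 22 reads with emetine and 0, 0 and 5 in the control, a ratio of 7.78 (3.03 to 25.4), a log2 change of 3.86 and an unadjusted limma p of 0.0425 (adjusted 0.783). This peak and the one in EIF4A1 are the 2 members under an unadjusted 0.05. The EEF2 peak at chr19:3976663-3976703 had 1, 12 and 4 reads against 1, 0 and 1, again without overlap. In the other direction, the peak at chr19:3983277-3983289 had 15 reads in control library 2 and none elsewhere. EEF2 shared 0% of its 30-base words with transcripts of other loci.

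The EEF1 genes encode the complex that delivers tRNA and recycles its GTPase. Their 17 peaks held 65, 35 and 31 emetine reads and 61, 20 and 37 control reads, a ratio of 1.23 (0.955 to 1.60). EEF1D, a subunit of the exchange factor, held nearly all library 1 reads of the group, with 62, 0 and 4 reads against 61, 20 and 4. Its own ratio of totals was 0.863 (0.616 to 1.20), under that of the group. Library 1 of the treatments held 81.5% of the EEF1D reads, and 9 of its 10 peaks were read in library 1 of both treatments. Its log2 change was −1.83 (SE 1.46, limma adjusted p = 0.80). Emetine library 2 held no EEF1D read, and without it the change was 0.29. Control library 2 held 20 reads, all in 1 coding peak, and without it the change was −1.94.

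The remaining EEF1 genes had 12 to 43 reads each. EEF1G, a structural subunit, had 1, 10 and 14 reads against 0, 0 and 5, with a log2 change of 3.29 (SE 2.33, limma adjusted p = 0.80), and shared 74.2% of its 30-base words with other loci. EEF1A2, the eEF1A form of muscle and neurons, had 2, 13 and 0 reads against 0, 0 and 28; its peak at chr20:62124503-62124526 held 13 reads of emetine library 2 alone. A pair of its peaks repeat the same reads, and with that pair counted once the ratio of totals went from 0.595 (0.296 to 1.15) to 1.11 (0.491 to 2.51). EEF1A1, the common form, had 13 reads in 1 peak of emetine library 3, and EEF1E1, a component of the tRNA synthetase complex, 12 reads in emetine library 2.

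In the eIF1 and eIF1A group, factors of start codon selection and a relative, the control totals were higher. The 16 peaks held 12, 56 and 22 emetine reads and 13, 79 and 111 control reads, a ratio of 0.493 (0.380 to 0.634). EIF1AD, a protein with an eIF1A-like domain, made most of this. Its 6 peaks, all in the 3′ UTR, held 2, 1 and 3 reads with emetine and 5, 41 and 59 in the control. Every emetine library lay under every control library, with a ratio of 0.063 (0.023 to 0.143) and a log2 change of −3.31 (SE 1.58). The unadjusted limma p was 0.0365, the smallest of the 39 genes, and the adjusted p 0.80.

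Most EIF1AD peaks had at least 80% of their reads in 1 control library. The peak at chr11:65764866-65764891 had 21 reads in control library 2, and that at chr11:65765889-65765921 had 26 in control library 3, with 0 reads in the other 5 libraries at both. At chr11:65764304-65764343 the reads were 0, 1 and 0 against 5, 5 and 0. Different sites of the 3′ UTR carried the reads of the 2 deeper control libraries.

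EIF1AX, the canonical eIF1A on the X chromosome, had 1, 42 and 3 reads against 2, 36 and 12, a ratio of 1.02 (0.670 to 1.56). Among member peaks whose deposited average reached the table's median, its 3′ UTR held one of the 8 highest and the lowest of the deposited ratios. The peak at chrX:20143393-20143429 had 1, 9 and 3 reads against 0, 0 and 0, at least 4.82-fold higher, and the peak at chrX:20144014-20144036 had 0, 1 and 0 against 2, 12 and 0. Neither passed the test (limma adjusted p = 0.783 for both). EIF1 had 9, 13 and 16 reads against 6, 2 and 40, spread over 3 peaks of its 5′ UTR and 2 coding peaks.

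The eIF2 genes encode the GTPase complex that stress kinases inhibit. Together they had 3, 51 and 63 emetine reads and 3, 84 and 9 control reads, with a ratio of 1.35 (1.03 to 1.79) and most control reads in 1 library. EIF2S1, the subunit that these kinases phosphorylate, had 3, 50 and 21 reads against 1, 58 and 8. Its peak at chr14:67853062-67853088 in the 3′ UTR held the most reads of any member peak: 1, 19 and 21 against 0, 27 and 3. EIF2S3 had 0, 1 and 42 reads against 2, 14 and 1, with nearly all its emetine reads in 1 library and most control reads in 1 other. Its ratio of totals was 2.81 (1.57 to 5.26), while its log2 change was −0.77. EIF2S2 had a single peak, chr20:32676990-32677021 in the 3′ UTR, with 12 reads in control library 2 and 0 in the others.

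Subunits of eIF3, the scaffold that binds the small ribosomal subunit, had more negative than positive log2 changes, though few reads. Their 13 peaks, 11 of them coding, held 13, 23 and 68 emetine reads and 13, 34 and 93 control reads, a ratio of 0.825 (0.634 to 1.07), and 5 of 6 genes had a negative log2 change, beside 48.9% of all genes. By the ratio of totals 2 of the 6, EIF3E and EIF3F, were above 1. EIF3F had 1, 15 and 12 reads against 0, 5 and 0 in its only peak, chr11:8014557-8014571. The ratio there was 6.22 (2.37 to 20.6) and the log2 change 3.34 (SE 2.30, limma adjusted p = 0.80). EIF3B had 6, 8 and 3 reads against 8, 5 and 36, so its ratio of 0.386 (0.208 to 0.681) turned on control library 3. EIF3E had 6, 0 and 43 against 4, 7 and 26, with a ratio of 1.47 (0.941 to 2.32) and a log2 change of −0.91. Single libraries carried the others: EIF3A had 17 of its 18 reads in control library 2, and EIF3G all 18 in control library 3. EIF3I had 10 reads in emetine library 3 and 13 in control library 3.

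Among the factors of subunit joining and the hypusinated eIF5A, EIF5 and EIF5A lay on opposite sides. EIF5, which triggers GTP hydrolysis on eIF2, had 0, 21 and 12 reads against 2, 76 and 20, all in the 3′ UTR. The ratio was 0.374 (0.244 to 0.560), and the log2 change −2.12 (SE 1.60, limma adjusted p = 0.80). Emetine library 1 held no EIF5 read, and without it the change was −0.26. A pair of overlapping peaks at chr14:103807437-103807455 and chr14:103807445-103807480 had the same reads, 0, 0 and 1 against 1, 26 and 4. With that pair counted once, EIF5 had 32 reads against 67, a ratio of 0.531 (0.337 to 0.820) and a log2 change of −1.55. The EIF5 peak at chr14:103808075-103808122 went the other way, with 0, 5 and 7 reads against 0, 0 and 0.

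EIF5A, which relieves stalled ribosomes, had 4, 19 and 15 reads against 3, 1 and 10, and its groups did not overlap after scaling. The ratio was 3.02 (1.60 to 6.03) and the log2 change 1.75 (SE 1.65, limma adjusted p = 0.80). Its neighbouring peaks chr17:7215140-7215175 and chr17:7215176-7215219 had 1, 13 and 6 against 0, 1 and 0, and 2, 6 and 4 against 2, 0 and 2. The remaining EIF5A peak, chr17:7215503-7215538, had 1, 0 and 5 against 1, 0 and 8, a ratio of 0.741 (0.217 to 2.33). EIF5A shared 45.6% of its 30-base words with other loci, nearly all with its copy EIF5AL1. The paralog EIF5A2 had 11 reads in emetine library 3 and 17 in control library 2, the latter at chr3:170609423-170609451. EIF5B, the GTPase of subunit joining, had 5, 0 and 22 against 0, 6 and 1.

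The poly(A)-binding proteins were led by PABPC1, which had lower values in all emetine libraries. It held 10, 31 and 49 reads against 25, 53 and 70 over 10 peaks, a ratio of 0.676 (0.514 to 0.884) and a log2 change of −0.72 (SE 0.88, limma adjusted p = 0.810). The 3 peaks of its 5′ UTR, where the protein is known to bind its own message, had 9, 3 and 5 reads against 20, 6 and 15, a ratio of 0.461 (0.245 to 0.829). Its 5 coding peaks had 0, 18 and 41 against 4, 46 and 34, a ratio of 0.780 (0.550 to 1.10). PABPC1 RNA was lower as well, with a log2 ratio of −0.37 (−0.47 to −0.26), and its part in the CLIP difference was not tested.

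PABPC4, a close relative, had 2, 9 and 35 reads against 13, 24 and 5, a ratio of 1.22 (0.783 to 1.90). Its log2 change was −0.29, but 0.81 without library 1 of both treatments. PABPC1L had 2, 0 and 0 reads against 3, 0 and 24, PABPC3 0, 7 and 7 against 2, 1 and 0, and PABPC4L 0, 13 and 6 against 0, 0 and 13. PABPC1 and PABPC3 share 15.8% of the 30-base words of PABPC1, and their reads may be split between them.

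Of the release factors, ETF1, which reads the stop codon, had peaks that went opposite ways within 1 3′ UTR. At chr5:137842384-137842444 it had 3, 5 and 4 reads with emetine and 0, 1 and 0 in the control, without overlap and with a log2 change of 3.49. At chr5:137841807-137841846 it had 0, 0 and 0 against 0, 30 and 5. The gene sum was 12 reads against 36, a ratio of 0.370 (0.175 to 0.728). Its log2 change lay on the other side at 0.74 (SE 1.99, limma adjusted p = 0.960), and was −1.28 without library 1 of both treatments. GSPT1, the GTPase partner, had 2, 1 and 14 reads against 2, 1 and 9.

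**Figure D4:**
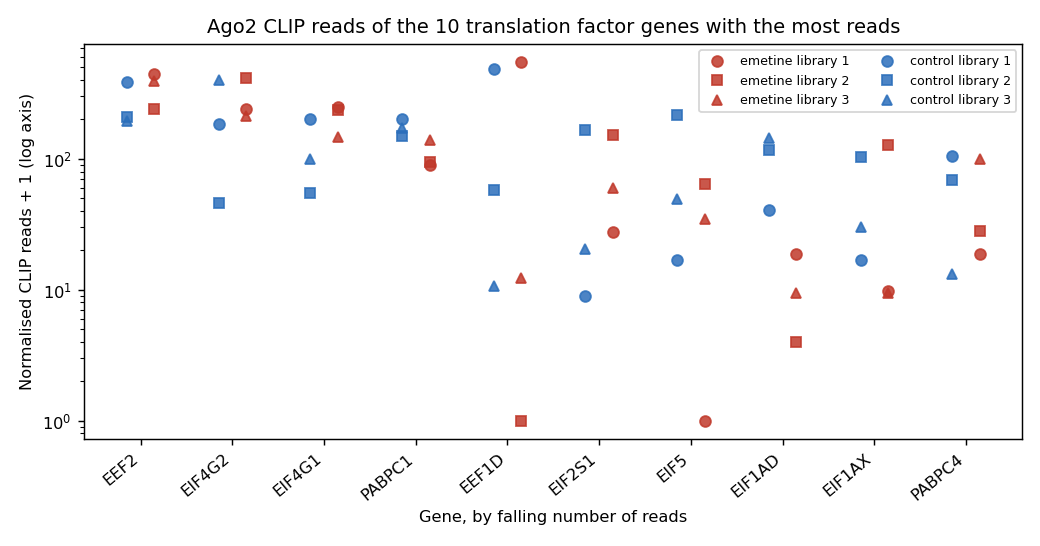
Normalised reads + 1 on a log axis for the 10 member genes with the most CLIP reads; colour is the treatment and shape the library number, 1 point per library. EIF1AD and PABPC1 are the only ones of the 10 whose groups do not overlap, and EEF1D is highest in library 1 of both treatments.

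Reads of a site were often concentrated in few libraries. Of the member peaks 59 (35.8%) had at least 80% of their reads in 1 library, against 49.2% of all peaks, and 24 (14.5%, against 26.5%) had all of them there. Of those 24, 0 lay in a library 1, 4 and 5 in emetine libraries 2 and 3, and 9 and 6 in control libraries 2 and 3. Reads in all 6 libraries were found at 3 member peaks (1.82%, against 4.67%). Of 126 member peaks read in both treatments, 46 (36.5%) were highest in the same library number in each, against 39.2% of all peaks. Those with no emetine read numbered 21 (12.7%, against 20.2%), and those with no control read 18 (10.9%, against 17.7%).

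The RNA of these genes differed little between the treatments, with 1 library each and so no test. Members took 40447 emetine and 15319 control RNA reads, 1.07% and 0.982% of the RNA reads assigned to genes with peaks. Among 38 members with at least 50 RNA reads over both libraries, the log2 ratio of emetine to control had a median of 0.04 and an SD of 0.30, against 0.01 and 0.35 over 5808 genes. It was above 0 for 22 members (57.9%, against 50.9%), above 1 for 0 (0.844%) and below −1 for 1 (0.792%). The range ran from −1.05 to 0.83.

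Of the 4 lowest and 4 highest RNA ratios, 4 belonged to poly(A)-binding proteins and 4 to other factors. PABPC1L was lowest at −1.05 (exact 95% interval −1.72 to −0.38) with 44 emetine and 36 control reads, before scaling for the deeper emetine library. PABPC1 was next at −0.37 with 2286 and 1161 reads. EEF1D at −0.31 (−0.65 to 0.03) and EIF2S3 at −0.27 (−0.38 to −0.17) followed. At the other end stood PABPC4L at 0.83 (0.24 to 1.48) with 127 and 28 reads. EIF4E2 had 0.46 (0.22 to 0.71), PABPC4 0.33 (0.17 to 0.50) and EIF5 0.32 (0.19 to 0.45). These intervals cover counting error only. EIF5 thus combined a positive RNA ratio with fewer CLIP reads, while EIF1AD had an RNA ratio of −0.02 (−0.48 to 0.45) and EIF4A1 one of 0.23 (0.02 to 0.45).

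**Figure D5:**
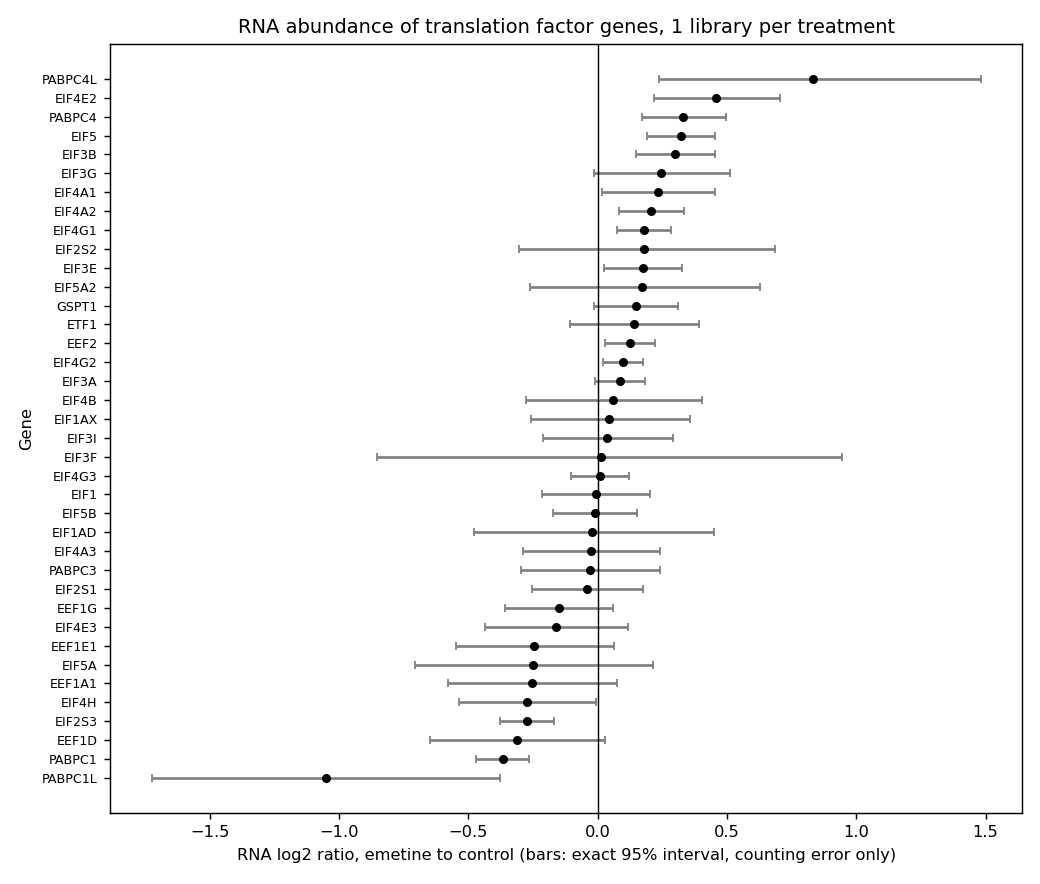
Points give the RNA log2 ratio of emetine to control for the 38 members with at least 50 RNA reads, with 1 library per treatment, and bars the exact 95% interval (counting error only). PABPC1L lies lowest at −1.05 and PABPC4L highest at 0.83, and most genes lie within 0.4 of 0.

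Level per length was computed for the members' RNAs. It depends on the transcript length used and on how reads were assigned, so it does not rank the members by abundance. Normalised RNA reads per kilobase of the longest GENCODE v29 transcript were 2951 in the control and 3159 with emetine for EIF4G2. For EEF2 they were 2448 and 2670, for EIF4A2 2355 and 2720, and for PABPC1 2124 and 1646. EEF1A1 had 168 and 141, from 117 and 249 RNA reads and a transcript length of 4441 bases. Of its 30-base words 34.1% were shared with other loci. EIF1AD had 124 and 122. Genes with more RNA reads tended to have more CLIP reads: Spearman's rho was 0.45 over the 39 members and 0.36 over all genes, as a description, since genes are not independent replicates.

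The authors' deposited log ratio sets CLIP against RNA at each peak. Converted from the natural log to log2, its median was 0.26 over the member peaks and 0.04 over all, and 95 of 165 (57.6%) were above 0, against 50.8%. The deposited average, which is the mean of both treatments, had a median log2 of −9.55 for members and −8.57 for all peaks, which is a lower level of CLIP relative to RNA. The highest deposited ratio among the 51 member peaks whose deposited average reached the table's median was 4.54, at the EIF4A1 coding peak named above, and the lowest was −2.45, at the EIF1AX peak chrX:20144014-20144036.

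Regulators of translation outside the rule were examined beside the members. A list of 27 such genes, with the EIF2AK kinases, EIF4EBP repressors, MTOR and others, had 22 genes with 168 peaks. Of these peaks 91 had a positive and 77 a negative log2 change, and of the genes 11 each. limma called 0 peaks and 0 genes, with median log2 changes of 0.25 and −0.01. EIF2AK3, the kinase PERK of the endoplasmic reticulum, had 4, 40 and 40 reads against 0, 16 and 2 and a log2 change of 3.62 (SE 1.70). Its limma p was the smallest of the list, 0.0332 unadjusted and 0.80 adjusted. MTOR, the kinase that controls TOP messages, had 2, 15 and 9 reads with emetine and 0 in each control library. EIF4EBP2, a repressor of eIF4E, had 40, 103 and 107 reads against 50, 184 and 115. DDX3X, a helicase of initiation, had the most reads of the list, 36, 253 and 233 against 25, 267 and 143.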

How the data were processed

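Ago2 CLIP of 6 libraries and RNA-seq of 2 libraries were analysed. The authors deposited 1 table with, per the file headers, a normalised log average and log ratio per peak. These deposited natural log values (the base is inferred from the values) were made by the authors from normalised CLIP and RNA reads. The submitters' processing notes name hg19, Bowtie 0.12.8, TopHat and DESeq without roles; no source used here gives the peak caller. Coordinates are those of the table. For each treatment, ln(1 + reads × factor), averaged across its 3 CLIP libraries, less the same logarithm of its RNA library, gives the value. Whole reads and factors meeting this were searched for, and 22467 of 22506 peaks (99.8%) and all 165 member peaks were recovered, within 1e-13 on 3 times the value (wider at very large averages). Of 2528 shifted values, 14 matched by chance with emetine and 7 in the control. One CLIP read was worth 8.86, 3.00 and 2.81 (emetine) and 8.00, 2.82 and 2.43 (control), and one RNA read 2.51 and 6.37.

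Peaks and gene sums were tested with limma 3.58.1 (R 4.3.3), with trend, on log2(reads × factor + 1), treatment alone, no filter, Benjamini-Hochberg at 0.05. This is the test for normalised log values; a count model was not fitted to the recovered reads, and limma-voom was the alternative. In simulated counts 200 features were changed 8-fold, all drawn from those with a mean normalised read number at or above the median. Of these, 33% of changed peaks and 72.5% of changed genes were recovered at a dispersion of 0.2, and 0% at 2. Recovery at lower means was not simulated, and the dispersion of the data is not given here. Shares were compared by exact permutation tests (scipy 1.17.1, Python 3.11.15), with Wilson 95% intervals in the plot. For ratios of totals the 95% intervals are exact binomial ones; 3 reads per treatment stood in for 0.

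Members, lists and roles were chosen with earlier results of these data known. Named were the 10 genes with the most CLIP reads, the 8 highest and 8 lowest deposited ratios of member peaks whose average reached the table's median, the gene with the smallest p per role, the 4 highest and 4 lowest RNA ratios, and paralogs of these. Other members are given so that all 39 are accounted for, and further EEF2, EIF4G2, EIF5, EIF2S1 and ETF1 peaks were picked after their values were seen. Alternatives covered the added constant, a read minimum, scaling, limma-voom, left-out libraries and repeated peaks. Leaving out library 1 of both treatments, and counting repeated peaks once in gene sums, were chosen after seeing the data. MicroRNA seed matches in peaks were not analysed here, because no hg19 sequence was used. Figures were drawn with matplotlib 3.10.9.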

Additional observations from a re-analysis of the deposited data

How the results depend on the processing

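No member peak or gene was called under any alternative run with limma: constants of 0.5 and 5, a minimum of 30 reads, scaling by total reads in peaks, limma-voom, each library left out, library 1 of both treatments left out, and repeated peaks counted once. For genes the limma-voom run could call little: its standard error for EEF2 was 2.20, against 0.63 in the main fit. With at least 30 reads, 13 of 20 member peaks were positive, beside 54.0% of all such peaks. Without library 1 of both treatments, 9 of 165 member peaks had an unadjusted limma p under 0.05, beside 3.31% of all peaks. The log2 change then went from −1.83 to −2.83 for EEF1D, from −3.31 to −4.40 for EIF1AD and from −2.12 to −1.13 for EIF5. Leaving out 1 library at a time gave 71 to 96 positive peaks and 19 to 26 positive genes. The share of member reads ranged from −0.0396 to 0.0851 points (emetine minus control) and the coding share from 0.939 to 7.11 points. EEF1D ranged from −4.26 to 0.29 on the log2 scale, EIF1AX from −1.96 to 0.0090, ETF1 from −0.96 to 2.28 and PABPC4 from −1.19 to 0.31. ETF1 was −0.17 with limma-voom and −1.28 without library 1 of both treatments, and PABPC4 was 0.34 and 0.81; the cause was not tested. The single reversals were 0.29 for EEF1D without emetine library 2, 0.0090 for EIF1AX without control library 2, −0.96 for ETF1 without control library 1, and 0.21, 0.31 and 0.0079 for PABPC4 without emetine library 1, control library 1 and control library 2. The share was −0.0096 without emetine library 3. For 8 named peaks and genes, leaving out the library that held all their reads left no value. No paired analysis was possible because the table carries no library names, and the library numbers used here come from the value of 1 read, not from an antibody. Member peaks held a median of 16 reads over 6 libraries; calls at other depths were not tested.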
